A study of Mus musculus with 12 samples.

Results

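The genes described here are those whose response to lipopolysaccharide (LPS) and interleukin 4 (IL-4) differed between wild type and EFLmDREAM transgenic B cells. They were chosen by an interaction contrast, the transgenic minus wild type difference after stimulation minus the same difference before it, computed for each probe set from all 12 arrays. With limma's test and Benjamini-Hochberg adjustment over 45037 probe sets, 710 (1.58%) had an adjusted p under 0.05, which is the meaning of "called" below. Counted with the brightest probe set of each gene, these were 360 of 18193 genes (1.98%), 253 with an interaction below 0 (1.39%) and 107 above 0 (0.588%).

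B cells from mouse spleen, with CD43-bearing cells removed on magnetic beads, were profiled on Affymetrix mouse genome arrays in 4 groups of 3 independent biological replicates. The groups were wild type and EFLmDREAM transgenic cells without stimulation (day 0), and wild type and EFLmDREAM transgenic cells after 2 days of culture with 20 µg/ml LPS plus 10 ng/ml IL-4. The labels name neither the promoter that drives the transgene nor the mouse strain or age. All levels are deposited log2 values, so a difference of 1 is 2-fold, and differences are given ± SE with n = 3 arrays per group.

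DREAM, the product of Kcnip3, is a calcium-binding protein of the KChIP family that also binds DNA and represses transcription, and calcium binding releases it from its target site, the DRE. LPS acts on B cells through TLR4 and NF-kB, and IL-4 acts through STAT6. Together they bring resting B cells into growth and division, switch off the genes of the resting state and direct antibody class switching.

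Promoters of 4 genes are shown because these genes carried 2 of the patterns described below. Gbp2 and Gbp2b, neighbouring guanylate-binding protein genes, had a weaker induction in transgenic cells, and Klf2 and Dusp2 had a deeper repression. Each sequence runs 5′ to 3′ from 250 bases before to 50 bases after the transcript start, from RefSeq on build GRCm38.p6, at chr3:142620413-142620712 (Gbp2), chr3:142594597-142594896 (Gbp2b), chr8:72318812-72319111 (Klf2) and chr2:127335909-127336208 (Dusp2), all on the + strand. Capitals mark GAAA repeated after a gap of 2 bases, a spacing typical of interferon-response elements, in the Gbp promoters, and GTCA, the core of the DRE, in the others, each on either strand.
Gbp2: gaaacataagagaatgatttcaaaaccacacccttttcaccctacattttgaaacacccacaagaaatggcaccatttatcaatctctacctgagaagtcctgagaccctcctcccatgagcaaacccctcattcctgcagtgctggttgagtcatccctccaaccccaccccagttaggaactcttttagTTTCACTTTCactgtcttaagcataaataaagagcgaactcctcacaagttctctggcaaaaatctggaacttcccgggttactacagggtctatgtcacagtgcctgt
Gbp2b: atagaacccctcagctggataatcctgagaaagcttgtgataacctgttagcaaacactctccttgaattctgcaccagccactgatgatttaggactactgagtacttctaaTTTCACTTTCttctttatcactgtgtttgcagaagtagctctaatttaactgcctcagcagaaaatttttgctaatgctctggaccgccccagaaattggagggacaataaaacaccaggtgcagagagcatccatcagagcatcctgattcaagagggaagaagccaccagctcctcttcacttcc
Klf2: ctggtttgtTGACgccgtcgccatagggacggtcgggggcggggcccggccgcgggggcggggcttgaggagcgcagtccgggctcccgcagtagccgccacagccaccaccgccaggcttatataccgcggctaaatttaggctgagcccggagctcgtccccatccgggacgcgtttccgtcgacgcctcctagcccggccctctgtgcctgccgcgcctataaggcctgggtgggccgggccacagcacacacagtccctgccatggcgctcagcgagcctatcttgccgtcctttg
Dusp2: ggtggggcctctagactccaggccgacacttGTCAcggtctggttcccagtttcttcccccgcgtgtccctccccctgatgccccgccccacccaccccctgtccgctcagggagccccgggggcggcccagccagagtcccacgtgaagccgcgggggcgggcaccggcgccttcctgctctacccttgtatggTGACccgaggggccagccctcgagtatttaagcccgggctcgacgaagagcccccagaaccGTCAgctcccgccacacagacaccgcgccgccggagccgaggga
Both Gbp promoters held TTTCACTTTC, the reverse-strand form of that motif, which began at position −59 of Gbp2 and −137 of Gbp2b, counted from the transcript start. The motif occurred in 3.49% of 27025 promoters of this length and in 3.77% of the 53 promoters matched to the 65 genes with weaker induction, those of Gbp2 and Gbp2b. It occurred in 12.5% of 24 promoters of genes with weaker repression, in 4.37% of 183 promoters of genes whose day 0 difference faded and in 0 of 10 with deeper repression. GTCA was common everywhere, in 85.4% of all promoters, 83% of those with weaker induction, 90% of those with deeper repression, 91.7% of those with weaker repression and 86.3% of those whose day 0 difference faded. The Klf2 promoter held 1 GTCA and the Dusp2 promoter 3. Such a match is a description of letters in this window and not of a bound site.

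Kcnip3, the gene from which the transgene derives, showed no called interaction on either of its probe sets. Its brighter probe set read 6.75, 6.71 and 7.19 in unstimulated wild type arrays and 7.0, 7.07 and 7.28 in unstimulated transgenic arrays. After stimulation it read 6.67, 6.56 and 6.58 in wild type and 6.78, 6.53 and 6.59 in transgenic arrays. The genotypes overlapped in both states, and the interaction was −0.20 ± 0.18 (adjusted p = 0.683). Neither the labels nor the array annotation state whether these probe sets detect RNA made from the transgene, and the genotype labels were not checked with them.

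The response itself was broadly shared. Across all genes, the change with stimulation in transgenic cells correlated with that in wild type cells at r = 0.94, a description over 18193 genes that are not independent. By limma on quantile-normalized values, 60% of genes responded in wild type and 58.5% in transgenic cells. Between the genotypes, 10.4% of genes were called before stimulation and 2.34% after it. Of 1811 genes that were induced at least 2-fold in wild type cells, 72 had an interaction below 0 and 8 above 0, and of 1339 genes repressed at least 2-fold, 43 lay below 0 and 59 above. These shares, 4.42% and 7.62% of the induced and repressed genes, use the same wild type arrays as the interaction and are descriptions.

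**Figure D1:**
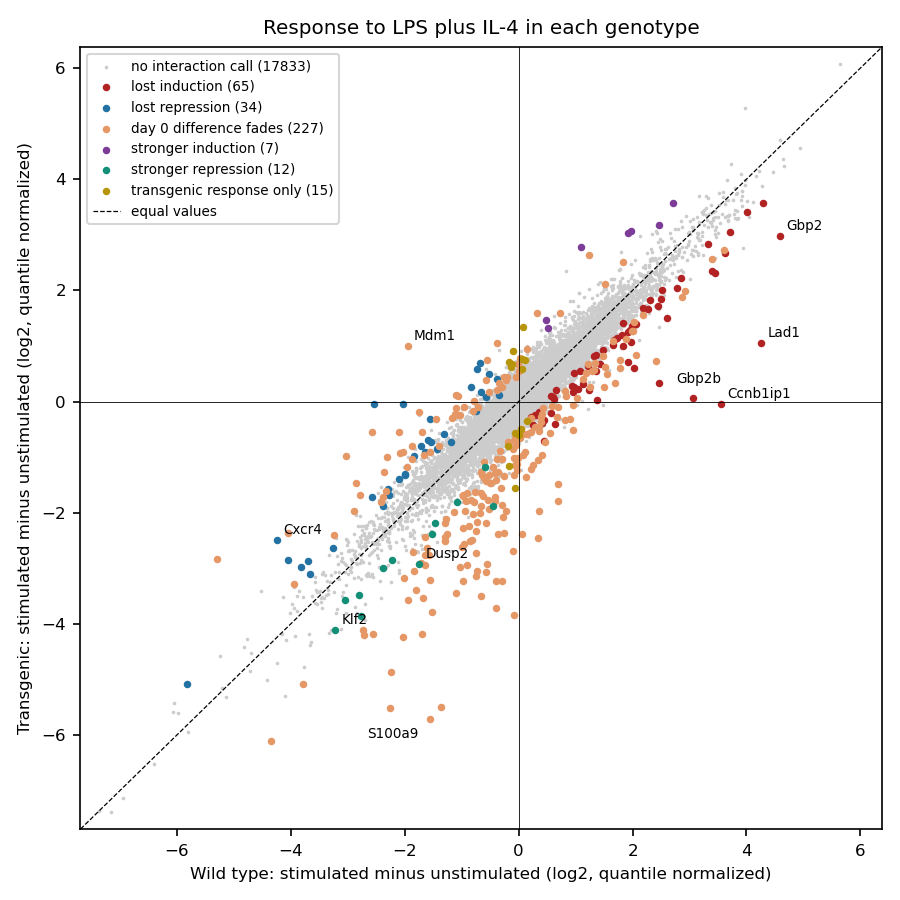
Each point is 1 of 18193 genes, with the stimulated minus unstimulated change in wild type cells on the horizontal axis and in transgenic cells on the vertical axis (both log2, quantile-normalized values). Colours give the classes of the 360 called genes; Ccnb1ip1, Lad1 and Gbp2b lie far below the line of equal values, and Mdm1 and Cxcr4 above it.

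The called genes were sorted into classes. A gene belonged to the faded day 0 differences where the unstimulated genotypes differed by a called amount and the stimulated difference was at most 0.5 times as large. Of the remaining genes, "lost induction" means that wild type cells raised the gene and transgenic cells raised it less, and "lost repression" means that wild type cells lowered it and transgenic cells lowered it less; either word covers partial loss. The faded differences held 227 genes (63.1% of 360), lost induction 65 (18.1%) and lost repression 34 (9.44%). A stronger repression in transgenic cells was seen for 12 genes, a stronger induction for 7, and a called response in transgenic cells alone for 15. The classes are built from the same arrays as the interaction, so their sizes are descriptions.

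Leaving out 1 array at a time moved these sizes. The 710 calls became 1418 without wild type unstimulated replicate 3, and 407 without transgenic unstimulated replicate 3. They became 446, 388 and 419 without wild type stimulated replicates 1, 2 and 3, and 428 and 392 without transgenic stimulated replicates 1 and 2. Of the 360 genes, 190 had further probe sets, and in 42 of these a further probe set was called in the same direction, in 0 in the opposite one. The unstimulated wild type replicate 1 stood apart in a measure of RNA quality: its 5′ minus 3′ difference of the actin control probe sets was −2.22, against −0.67 to −0.54 in the other unstimulated and −1.36 to −0.43 in the stimulated arrays. Without that array 817 probe sets were called.

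Lost induction comprised 65 genes whose median change with stimulation was 1.68 in wild type but 0.71 in transgenic cells (log2, quantile-normalized). In 14 of them the transgenic response was not called, and in 9 the transgenic cells lowered the gene, where 23.3% of all genes fell in transgenic cells. The interaction ran from −3.72 to −0.48, and 15 genes reached 2-fold. The genotypes differed by a called amount before stimulation in 30 of these genes and after it in 38. Among the 12 sets with 1 array left out, the class held 37 genes at the fewest, without wild type stimulated replicate 3 or transgenic stimulated replicate 2, and 98 at the most, without wild type unstimulated replicate 1.

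Ccnb1ip1, which encodes a ubiquitin ligase of the meiotic recombination and cyclin B pathways, had the largest interaction of this class. It read 5.11, 4.78 and 4.84 in unstimulated wild type and 4.80, 4.61 and 4.58 in unstimulated transgenic arrays. Stimulated wild type arrays read 8.09, 8.12 and 8.12, while stimulated transgenic arrays read 4.06, 4.19 and 4.18. The stimulated wild type arrays stood far above all others, and no transgenic array rose above the unstimulated range. The interaction was −3.72 ± 0.13, or 13.2-fold (adjusted p = 4.17e-08), and the gene has 1 probe set.

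Lad1, the gene of the basement membrane filament protein ladinin, showed the same course except that a smaller rise was left. Its levels were 4.93, 5.07 and 5.38 in unstimulated wild type and 5.29, 5.04 and 5.24 in unstimulated transgenic arrays. They reached 9.16, 9.22 and 9.01 in stimulated wild type and 5.50, 5.97 and 5.44 in stimulated transgenic arrays. Before stimulation the genotypes overlapped, and after it they lay apart, with a transgenic minus wild type difference of −3.49 ± 0.15. The transgenic rise was still called, 1.05 against 4.26 in wild type (adjusted p = 1.92e-05 for the transgenic rise), and the interaction was −3.56 ± 0.21 (adjusted p = 3.52e-06).

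The guanylate-binding proteins Gbp2b and Gbp2, interferon-inducible GTPases that attack vacuoles of intracellular microbes and whose promoters are printed above, came next among named genes. Gbp2b read 4.51, 4.40 and 4.54 in unstimulated wild type and 4.63, 4.63 and 4.56 in unstimulated transgenic arrays. It read 6.89, 7.15 and 7.22 in stimulated wild type against 3.94, 4.49 and 4.17 in stimulated transgenic arrays. The induction was present in all 3 wild type arrays and in no transgenic array, with an interaction of −3.01 ± 0.18 (adjusted p = 3.52e-06). Gbp2 was high in both genotypes after stimulation but unequally so: 12.03, 11.97 and 12.03 in wild type and 9.57, 9.60 and 9.59 in transgenic arrays. Before stimulation Gbp2 read 7.75, 7.43 and 7.34 in wild type and 7.08, 6.70 and 6.94 in transgenic arrays. Transgenic cells were thus lower in both states without overlap, and more so after stimulation (interaction −1.82 ± 0.16, adjusted p = 7.8e-05). A further Gbp2 probe set gave −1.90 ± 0.18 (adjusted p = 0.000161). The brighter one is of a type that can read related transcripts, so the levels of the 2 neighbours may not be fully separate. Of the 17 measured genes of the interferon-response list, Gbp2 was the 1 called below 0 (1.39% of all genes) and 0 were called above 0. The list's median interaction was 0.17 beside −0.010 for all genes.

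The largest interaction of all 45037 probe sets was −3.78 ± 0.24 (adjusted p = 6.05e-06), at a probe set without a single gene symbol, whose response was 4.49 for wild type and 1.18 for transgenic cells.

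**Figure D2:**
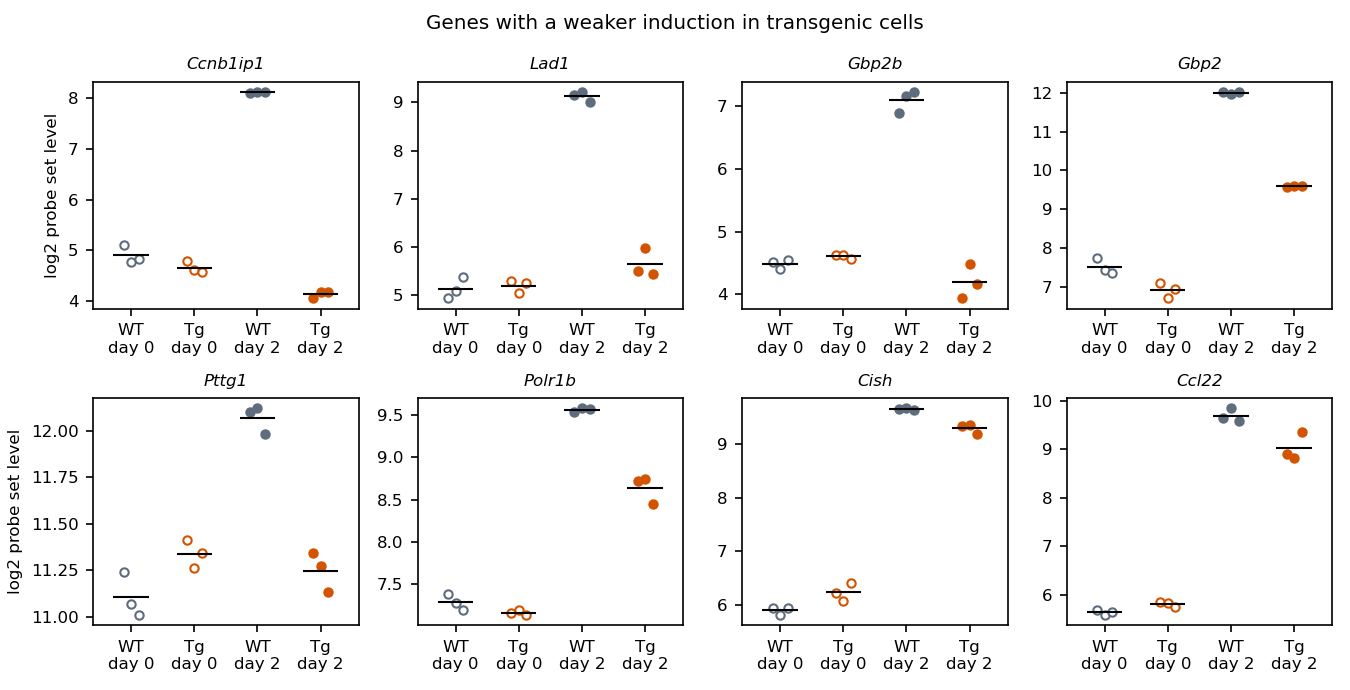
Log2 level of 8 genes with lost induction in each of the 12 arrays, wild type (WT) in grey and transgenic (Tg) in orange, open circles at day 0 and filled at day 2, with a bar at the group mean; each panel has its own vertical range. Wild type day 2 arrays lie above transgenic day 2 arrays in every panel, with transgenic minus wild type differences of −3.97 for Ccnb1ip1 and −0.36 for Cish.

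In 55 of the 65 genes of the class, called differences or not, the transgenic mean started higher and ended lower, so that the lines of the genotypes crossed. The median transgenic minus wild type difference of the class was 0.26 before and −0.43 after stimulation. Several further named genes were among these 55. Tmem176a, an ion channel-like membrane protein of antigen-presenting cells, was 0.93 ± 0.17 higher before stimulation (adjusted p = 0.0041) and 0.51 ± 0.17 lower after it (adjusted p = 0.202). All 3 of its probe sets were called for the interaction, with −1.44, −1.22 and −0.97. Fmnl2, a formin that elongates actin filaments, was 0.68 ± 0.16 higher before (adjusted p = 0.0201) and 0.70 ± 0.16 lower after (adjusted p = 0.0491), an interaction of −1.39. Fmnl2 levels were low, with unstimulated means of 4.67 in wild type and 5.36 in transgenic arrays, whose array medians were 5.97 to 6.05. Its stimulated means were 5.49 in wild type and 4.79 in transgenic arrays, beside array medians of 5.37 to 5.41. Dtwd1 had an interaction of −1.31, with 0.51 higher before and 0.80 lower after, both called. For Smyd2, a lysine methyltransferase, the interaction was −1.21, and it rose by 3.44 in wild type and 2.32 in transgenic cells. Its transgenic minus wild type difference was 0.73 ± 0.14 before stimulation (adjusted p = 0.0056). After it the difference was −0.47 ± 0.14 and not called (adjusted p = 0.134).

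Pttg1, the securin that holds separase inactive until anaphase, was a mitotic gene that moved in opposite directions. It read 11.24, 11.07 and 11.01 in unstimulated wild type and 11.41, 11.26 and 11.34 in unstimulated transgenic arrays. After stimulation it read 12.10, 12.12 and 11.98 in wild type and 11.34, 11.27 and 11.13 in transgenic arrays. Wild type cells raised it by 0.64 and transgenic cells lowered it by 0.40 on the quantile-normalized scale, both called. The interaction was −1.05 ± 0.12 (adjusted p = 0.000989), and 2 of its 3 probe sets were called. Of the brightest probe sets of 28 measured mitosis genes, those of Pttg1 and Ube2c were called below 0 and 0 above 0. The median of the mitosis list was −0.23. None of 28 DNA replication genes was called by limma on its brightest probe set, with a median of −0.13. Of all genes 1.98% were called. Dimmer probe sets of both lists were not counted.

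Genes that make ribosomes were represented by Polr1b, a large subunit of RNA polymerase I, and Wdr12, a factor for the large ribosomal subunit. Polr1b read 7.39, 7.28 and 7.20 in unstimulated wild type and 7.16, 7.19 and 7.14 in unstimulated transgenic arrays. It rose to 9.54, 9.58 and 9.57 in wild type and to 8.72, 8.75 and 8.45 in transgenic arrays. The transgenic arrays were lower without overlap in both states, by a called amount only after stimulation (0.92 ± 0.09, adjusted p = 6.7e-05), and the interaction was −0.80 ± 0.12 (adjusted p = 0.00583). Wdr12 had −0.51 ± 0.12 (adjusted p = 0.0455), a call lost without 10 of the 12 arrays, each left out in turn, and not shared by its further probe sets (−0.15 and 0.013). It was also lost with quantile normalization (adjusted p = 0.0526) and subtracted array medians (adjusted p = 0.0648). These were the 2 calls among 21 measured genes of ribosome biogenesis and MYC targets, whose median was −0.19. Both lay below 0, as did 1.39% of all genes.

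Among 17 measured IL-4 response genes, 4 were called below 0 and 0 above 0, beside 1.39% and 0.588% of all genes. The list median was −0.19, that of all genes −0.01. Cish, a STAT-induced inhibitor of cytokine receptors, read 5.93, 5.81 and 5.93 in unstimulated wild type and 6.22, 6.07 and 6.40 in unstimulated transgenic arrays. It rose to 9.65, 9.67 and 9.64 in wild type and 9.34, 9.35 and 9.19 in transgenic arrays. Transgenic arrays thus began above and ended below wild type arrays with no overlap in either state, and the interaction was −0.70 ± 0.13 (adjusted p = 0.0143). Ccl22, a chemokine that attracts CCR4-bearing T cells, rose by 4.28 in wild type and 3.58 in transgenic cells. Its stimulated levels were 9.64, 9.85 and 9.59 in wild type and 8.90, 8.82 and 9.36 in transgenic arrays. Its interaction was −0.84 ± 0.17 (adjusted p = 0.0316), and the call was lost without 9 of the 12 arrays in turn and with quantile normalization (adjusted p = 0.0536). The other calls, Xbp1 and Cd86, were faded day 0 differences and not lost inductions.

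In the NF-kB and TLR4 list, Tnf and Ebi3 were called below 0 and none above, of 22 measured, with a median of −0.20. The share of all genes called below 0 was 1.39%, and Ebi3 was a faded day 0 difference. Tnf, the inflammatory cytokine, rose by 1.31 in wild type and 0.82 in transgenic cells. Its transgenic minus wild type difference was 0.31 ± 0.09 before stimulation (adjusted p = 0.0412). After it the difference was −0.25 ± 0.09 and not called (adjusted p = 0.24). The Tnf interaction of −0.56 ± 0.12 (adjusted p = 0.0417) was lost without 10 of the 12 arrays in turn. The Tnf call was also lost with quantile normalization (adjusted p = 0.0615), subtracted array medians (adjusted p = 0.0583) and the trended robust prior (adjusted p = 0.0615). Ebi3, a subunit shared by secreted cytokines of B and myeloid cells, was 0.73 ± 0.08 higher in transgenic cells before stimulation (adjusted p = 0.000143) and 0.12 ± 0.08 lower after it (adjusted p = 0.685). Bid, a BH3-only protein of the cell death machinery, was the 1 call among 17 BCL2 family and apoptosis genes. It rose by 1.13 in wild type and 0.32 in transgenic cells, with an interaction of −0.74 ± 0.13 (adjusted p = 0.0136), though its 2 further probe sets were not called (−0.27 and −0.70). The transgenic minus wild type difference of Bid was 0.41 ± 0.09 before stimulation (adjusted p = 0.016). After it the difference was −0.33 ± 0.09 and not called (adjusted p = 0.112).

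Lost repression comprised 34 genes with a median change of −1.78 in wild type and −0.82 in transgenic cells. The transgenic response was not called in 7, and 4 rose in transgenic cells, where 35.2% of all genes rose. The interaction ran from 0.46 to 2.01 and reached 2-fold in 8. The class size ranged from 13, without transgenic unstimulated replicate 3, to 56, without wild type unstimulated replicate 3.

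Cxcr4, the CXCL12 receptor that keeps B cells in their niches, was high in resting cells and fell in both genotypes. It read 11.99, 12.20 and 12.33 in unstimulated wild type and 11.03, 11.27 and 10.71 in unstimulated transgenic arrays. It read 8.22, 8.17 and 7.40 in stimulated wild type and 8.34, 8.40 and 9.01 in stimulated transgenic arrays. Transgenic arrays were lower before and higher after stimulation, without overlap, though the stimulated difference was not called (0.65 ± 0.23, adjusted p = 0.233). The change on the quantile-normalized scale was −4.24 for wild type and −2.50 for transgenic cells, and the interaction was 1.82 ± 0.32 (adjusted p = 0.0134).

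Fcrla, an Fc receptor-like protein inside B cells, fell steeply in both genotypes. Its levels were 11.08, 11.10 and 11.09 in unstimulated wild type and 10.47, 10.28 and 10.37 in unstimulated transgenic arrays. After stimulation it read 7.05, 7.08 and 6.73 in wild type and 7.48, 7.50 and 7.31 in transgenic arrays. The order of the genotypes turned round between the states with no overlap in either. The interaction was 1.19 ± 0.14 (adjusted p = 0.000989), and 2 of its 3 probe sets were called.

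Endou, a uridylate-specific endoribonuclease, changed in opposite directions. Wild type arrays went from 8.17, 8.23 and 8.18 to 6.94, 7.09 and 7.34. Transgenic arrays went from 7.53, 7.30 and 7.55 to 7.83, 7.84 and 7.50. Transgenic cells were thus below wild type cells before and above them after stimulation, and both of its probe sets were called (interaction 1.33 ± 0.17 and 1.12 ± 0.17, adjusted p = 0.00152 and 0.00563). Tbc1d23, a Golgi tethering protein, showed the same order on its brightest probe set (interaction 0.97 ± 0.19, adjusted p = 0.0235); the call was lost without 7 of the 12 arrays in turn, and its further probe sets were not called (0.29 and 0.38).

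Fcgr2b and Ccl3, chosen after their values were seen, did not differ by a called amount between the unstimulated genotypes. Fcgr2b, the inhibitory Fc receptor of B cells, read 11.27, 11.22 and 11.21 in wild type and 11.41, 11.31 and 11.37 in transgenic arrays before stimulation. It read 10.03, 9.98 and 9.79 in wild type and 10.97, 11.02 and 10.82 in transgenic arrays after it. The stimulated transgenic arrays lay between the stimulated wild type and the unstimulated arrays. The quantile-normalized change was −1.54 for wild type and −0.72 for transgenic cells, with an interaction of 0.87 ± 0.12 (adjusted p = 0.00233) and calls on 3 of 5 probe sets. Ccl3, a chemokine of activated leukocytes, read 6.08, 6.37 and 6.03 in stimulated wild type and 6.85, 7.29 and 7.14 in stimulated transgenic arrays, with an interaction of 0.96 ± 0.17 (adjusted p = 0.0143).

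Other members of this class differed between the genotypes in the same direction in both states. Slc15a2, a peptide transporter, read 10.31, 9.77 and 10.72 in unstimulated wild type and 5.44, 5.24 and 5.46 in unstimulated transgenic arrays. After stimulation it read 7.50, 7.34 and 8.03 in wild type and 4.53, 5.35 and 4.35 in transgenic arrays. The transgenic arrays were low throughout and had no called response. The interaction of 2.01 ± 0.38 (adjusted p = 0.02) was not seen on its further probe sets (−0.037 and 0.010), and the call was lost without transgenic unstimulated replicate 2, wild type stimulated replicate 1 or wild type stimulated replicate 2. Ifi213, a DNA-sensing protein of the interferon-inducible IFI200 cluster, followed the same course. It was lower in transgenic cells by 3.58 ± 0.20 before and by 1.84 ± 0.20 after stimulation. Of its 2 probe sets 1 was called (interaction 1.74 ± 0.28, adjusted p = 0.00822), and the other gave −0.16 (adjusted p = 0.783). All transgenic levels of Slc15a2 and Ifi213 lay below the array medians, 5.97 to 6.05 before and 5.37 to 5.41 after stimulation. From so low a start, little further fall could be read. Ctse, the aspartic protease cathepsin E, was instead higher in transgenic cells in both states, by 3.84 ± 0.09 and 5.12 ± 0.09. Its interaction of 1.28 ± 0.13 (adjusted p = 0.00024) dropped to 0.67 when the 12 arrays were quantile-normalized, and its further probe set gave −1.11 ± 0.58 (adjusted p = 0.448). Of the remaining named members, Lratd2 had an interaction of 1.08 ± 0.24 (adjusted p = 0.0434), lost without 10 of the 12 arrays in turn and with array medians subtracted (adjusted p = 0.0528). Ddit3, the stress transcription factor CHOP, had 0.57 ± 0.12 (adjusted p = 0.0377), lost without 8, and its further probe set had the opposite sign (−0.37, adjusted p = 0.59).

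Stronger repression in transgenic cells was seen for 12 genes, among them regulators of the resting state. Klf2, a transcription factor that maintains lymphocyte quiescence and homing and whose promoter is printed above, was one of these. It read 13.04, 13.09 and 13.24 in unstimulated wild type and 13.13, 13.13 and 13.08 in unstimulated transgenic arrays. Stimulated wild type arrays read 9.95, 9.96 and 10.02, and stimulated transgenic arrays 9.03, 8.83 and 8.95. Overlapping before stimulation, the genotypes lay apart after it, with transgenic cells lower. The interaction was −1.03 ± 0.11 (adjusted p = 0.000464), on its 1 probe set.

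Dusp2, a nuclear phosphatase that inactivates MAP kinases, followed the same course. It read 10.14, 10.25 and 10.02 in unstimulated wild type and 10.20, 10.19 and 10.40 in unstimulated transgenic arrays. It fell to 8.37, 8.44 and 8.32 in wild type and to 7.19, 7.35 and 7.10 in transgenic arrays. The unstimulated groups overlapped and the stimulated groups did not, and the interaction was −1.29 ± 0.13 (adjusted p = 0.000297). Dusp2 was the 1 call among 22 immediate early genes, beside 1.98% of all genes called. That list had a median interaction of −0.13.

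Rasgrp2, which activates the Rap1 GTPase in response to calcium, had the largest interaction of the class, −1.58 ± 0.14 (adjusted p = 0.000128). It read 8.80, 8.67 and 8.56 in stimulated wild type and 7.20, 7.0 and 7.0 in stimulated transgenic arrays. Its 3 further probe sets were not called (−0.70, −0.57 and −0.27), and the called one is of a type that can read related transcripts. Cyp4f18, an enzyme that inactivates leukotriene B4, was 0.58 ± 0.09 higher in transgenic cells before and 0.53 ± 0.09 lower after stimulation, with an interaction of −1.11 ± 0.13 (adjusted p = 0.000989) and −0.013 on its further probe set, which was not called. Klf3, a repressor related to Klf2 and chosen after its values were seen, had −1.01 ± 0.15 on its brightest probe set (adjusted p = 0.00429); its 6 further probe sets were not called. In the quiescence and homing list, 3 of 18 measured genes were called below 0 (Klf2, Klf3 and Cxcr5) and 1 above 0 (Cxcr4), with a median of 0. The shares of all genes were 1.39% below 0 and 0.588% above 0. The calls in this list thus went both ways.

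**Figure D3:**
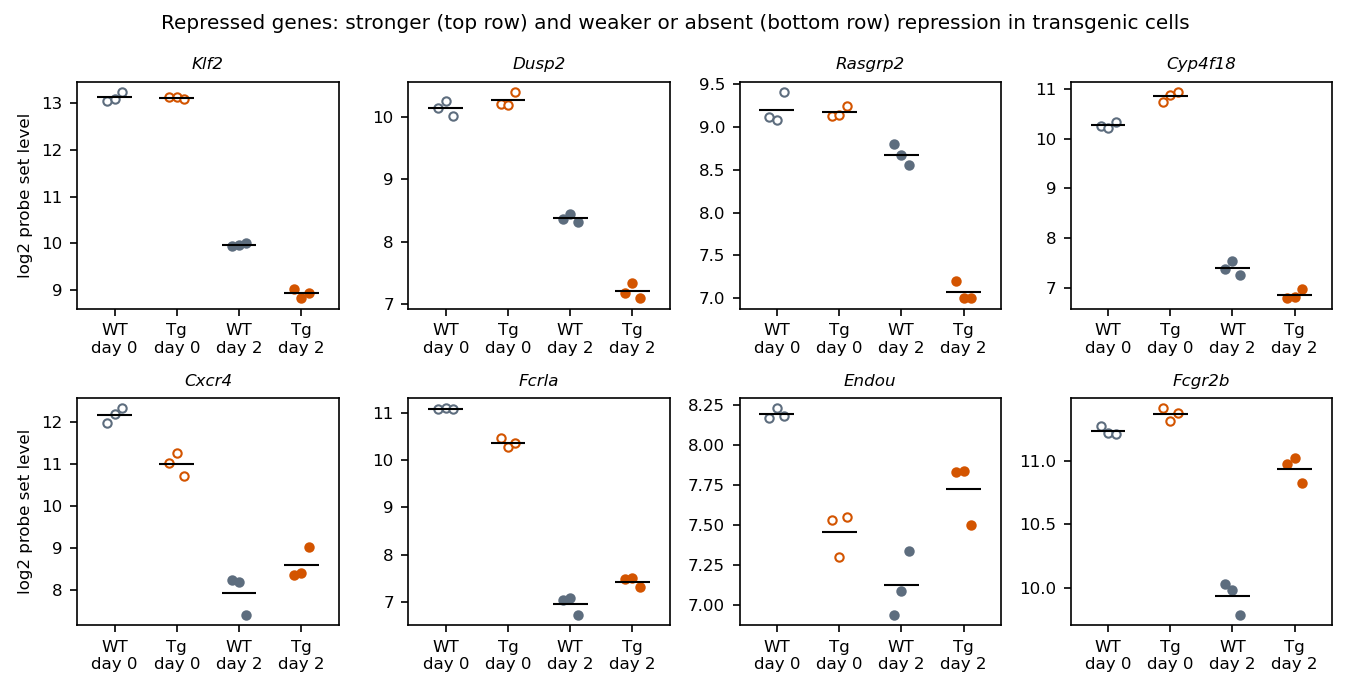
Log2 level in each of the 12 arrays for 4 genes with stronger repression in transgenic cells (top) and 4 with weaker or absent repression (bottom), wild type (WT) in grey, transgenic (Tg) in orange, open at day 0 and filled at day 2, bars at group means, with a vertical range per panel. In the top row the transgenic day 2 arrays lie below the wild type ones (Klf2 by 1.04), and in the bottom row above them (Fcgr2b by 1.00).

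Stronger induction comprised 7 genes, led by Saa3, Marco, Nmrk1 and Arg1, of which Saa3, an acute-phase protein, Marco, a scavenger receptor, and Arg1, arginase, are known from macrophages. Saa3 read 6.69, 6.52 and 6.80 in unstimulated wild type and 7.32, 7.08 and 7.16 in unstimulated transgenic arrays. It read 7.20, 7.59 and 7.03 in stimulated wild type and 9.33, 10.40 and 9.38 in stimulated transgenic arrays. All 3 transgenic arrays were higher, most of all replicate 2, and the interaction was 1.91 ± 0.33 (adjusted p = 0.0118). Marco reached 6.25, 6.52 and 6.26 in stimulated wild type and 7.35, 8.11 and 7.62 in stimulated transgenic arrays, an interaction of 1.17 ± 0.22 (adjusted p = 0.0192), with 0.62 (adjusted p = 0.136) on its further probe set. The Marco call was lost without wild type unstimulated replicate 2, transgenic unstimulated replicate 2, wild type stimulated replicate 1 or wild type stimulated replicate 3. Arg1 read 4.36, 4.37 and 4.48 in unstimulated wild type and 4.46, 4.35 and 4.41 in unstimulated transgenic arrays, all below the lower quartile of their array. It reached 5.16, 5.82 and 5.07 in stimulated transgenic arrays and 4.49, 4.44 and 4.23 in wild type ones. The wild type mean thus did not rise on the deposited values (4.40 before, 4.39 after). Its rise of 0.47, which placed Arg1 in this class, was on the quantile-normalized scale. The Arg1 interaction of 0.96 ± 0.22 (adjusted p = 0.0499) was lost without 10 of the 12 arrays in turn. Over 22 myeloid markers, the mean level in stimulated cells was 5.32 to 5.52 in wild type and 5.76, 6.04 and 5.84 in transgenic replicates 1, 2 and 3, highest in replicate 2 as well; its part in these results was not tested. Nmrk1, a nicotinamide riboside kinase, had 1.14 ± 0.22 (adjusted p = 0.022), lost without 6 of the 12 arrays in turn and not called on its further probe sets (0.19 and 0.20).

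A called response in transgenic cells alone was found for 15 genes. Plbd1, a phospholipase B-like lysosomal enzyme chosen after its values were seen, was level in wild type arrays, at 9.55, 9.53 and 9.43 before and 9.43, 9.46 and 9.54 after stimulation. In transgenic arrays it went from 10.33, 10.54 and 10.32 to 8.97, 8.87 and 8.91. Higher than wild type before and lower after, it had an interaction of −1.45 ± 0.11 (adjusted p = 2.72e-05). Ifi44l, an interferon-induced gene chosen in the same way, was higher in transgenic cells by 1.19 ± 0.20 before and by 2.69 ± 0.20 after stimulation. Its interaction of 1.50 ± 0.29 (adjusted p = 0.0206) was lost without wild type stimulated replicates 1 or 3 or transgenic stimulated replicates 1 or 2, and its further probe sets were not called (1.19 and 0.37). Pf4, platelet factor 4, had 1.12 ± 0.25 (adjusted p = 0.0467), lost without 9 of the 12 arrays in turn and with quantile normalization (adjusted p = 0.0567). Pf4 was the 1 call among 7 platelet markers, beside 1.98% of all genes called.

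Day 0 differences that faded made up most of the called genes: 227, of which 169 were higher and 58 lower in transgenic cells before stimulation. Most prominent were genes of granulocytes, macrophages and red cell precursors, which were higher in the unstimulated transgenic samples than in the other 3 groups. The median difference of the 169 genes was 1.10 before and 0.033 after stimulation, and of the 58 genes −0.71 and 0.080. After stimulation 6 of the 227 still differed by a called amount. The class size ran from 130, without wild type stimulated replicate 2, to 471, without wild type unstimulated replicate 3. Every one of the 227 genes also met a response class: 81 stronger repression, 50 lost induction, 46 lost repression, 45 a response in transgenic cells alone and 5 stronger induction. With the response classes assigned first, 0 faded genes would remain. At the limit of 0.5 for fading, Abhd14a (0.493) and Tmem176b (0.492) lay just inside and Ddit3 (0.509) and Faap24 (0.514) just outside. At the limit of the call, Pde12 and Ido1 (both adjusted p = 0.05) lay just inside and Mthfs (0.051) and Ccnd1 (0.0511) just outside; a dimmer Ccnd1 probe set was called, at −0.88 ± 0.13 (adjusted p = 0.00398).

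**Figure D4:**
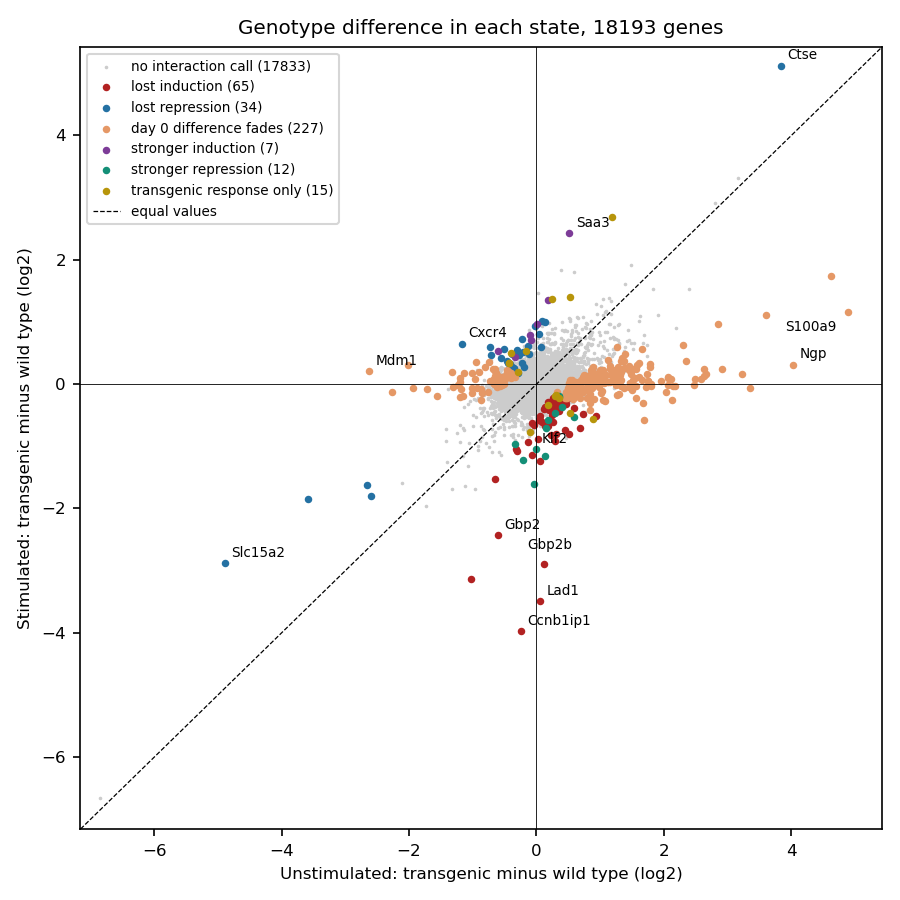
Each point is 1 of 18193 genes, with the transgenic minus wild type difference in unstimulated cells on the horizontal axis and in stimulated cells on the vertical axis (both log2). For the 227 genes whose day 0 difference faded, the vertical distance from 0 is at most 0.5 times the horizontal one, with S100a8 (1.74) and S100a9 (1.16) still above 0; the lost inductions lie below 0, and Ctse and Slc15a2 differ in the same direction in both states.

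Granulocyte genes led the class by size. S100a9, a calcium-binding subunit of calprotectin, read 6.42, 7.05 and 6.84 in unstimulated wild type and 11.36, 11.99 and 11.63 in unstimulated transgenic arrays. After stimulation it read 4.63, 4.73 and 4.53 in wild type and 5.72, 5.51 and 6.13 in transgenic arrays. Transgenic arrays were higher in both states without overlap, by 29.6-fold before and 2.23-fold after. The interaction was −3.73 ± 0.27 (adjusted p = 1.58e-05). S100a8, the other subunit, had −2.88 ± 0.26 (adjusted p = 0.000102) and was likewise still higher after stimulation, by 1.74 ± 0.18. Ngp and Camp, which encode granule proteins, had −3.72 ± 0.25 and −3.41 ± 0.27, Ltf, lactoferrin, had −3.06 ± 0.25, and the protease gene Prtn3 had −2.50 ± 0.24 (adjusted p from 6.66e-06 to 0.000199 over these 4). Their stimulated genotypes were not called different.

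Of 13 measured granulocyte markers, 11 were called below 0 for the interaction (1.39% of all genes) and 0 above 0, with a median of −2.49 beside −0.010 for all genes. Their mean level was 6.19 to 6.35 in unstimulated wild type, 8.84 to 9.24 in unstimulated transgenic, 4.90 to 4.96 in stimulated wild type and 5.23 to 5.40 in stimulated transgenic arrays. Log2 array values have no true zero, so no marker was read as absent. In a bulk sample, fewer cells of a type and less RNA of that type per cell cannot be told apart. The part of such cells in the faded differences was not tested.

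Macrophage genes followed. C1qa, a chain of the complement component C1q made by tissue macrophages, read 5.38, 5.22 and 5.07 in unstimulated wild type and 7.66, 7.75 and 7.99 in unstimulated transgenic arrays. It read 4.47, 4.55 and 4.65 in stimulated wild type and 4.71, 4.73 and 4.49 in stimulated transgenic arrays. The clear separation before stimulation became an overlap after it, with an interaction of −2.49 ± 0.15 (adjusted p = 5.02e-06). Slc40a1, the iron exporter ferroportin, had −2.67 ± 0.22 and −2.52 ± 0.21 on its 2 probe sets (adjusted p = 5.04e-05 and 6.38e-05). Of 22 measured monocyte, macrophage and dendritic cell markers, 6 were called below 0 (1.39% of all genes) and 1, Marco, above 0, with a median of −0.65. Their mean level was 6.61 to 6.83 in unstimulated wild type, 7.80 to 8.02 in unstimulated transgenic, 5.32 to 5.52 in stimulated wild type and 5.76 to 6.04 in stimulated transgenic arrays.

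Red cell genes made up the third group. Rhag, a glycoprotein of the Rh complex, read 3.87, 3.83 and 4.44 in unstimulated wild type and 6.32, 6.10 and 7.12 in unstimulated transgenic arrays, and from 3.09 to 3.29 in the stimulated arrays of both genotypes. Alas2, which makes the first committed step of heme synthesis in erythroid cells, had an interaction of −2.21 ± 0.32 (adjusted p = 0.00364), and Rhag −2.48 ± 0.31 (adjusted p = 0.00142). Of 11 measured erythroid markers 5 were called below 0 (1.39% of all genes) and 0 above 0, with a median of −0.69. Their mean level was 6.26 to 6.72 in unstimulated wild type, 7.31 to 7.66 in unstimulated transgenic, 5.39 to 5.49 in stimulated wild type and 5.42 to 5.49 in stimulated transgenic arrays. Without wild type unstimulated replicate 1, the counts below 0 were 11, 7 and 5 for granulocyte, myeloid and erythroid markers. Of 13 T and NK cell markers none was called by limma on its brightest probe set, with a median of −0.30. In that list 5 were higher in unstimulated transgenic cells by a called amount (5.45% of all genes) and 0 lower. The list mean was 6.105 to 6.495 in unstimulated wild type and 6.762 to 6.887 in unstimulated transgenic arrays. The median difference was 0.46 before and 0.053 after stimulation. Outside these brightest probe sets, those of Cd8a, Cd28 and Klra8, picked after values were seen, were faded calls (interaction −1.17, −0.89 and −1.27).

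The brightest probe sets of the B cell markers did not share this course. On these, none of the 11 measured defining markers was called for the interaction by limma, and their median was 0.097. A dimmer probe set of Ebf1, 1 of the markers, was called by limma, at 0.80 ± 0.12 (adjusted p = 0.00563). It was lower in transgenic cells by 0.63 before stimulation and faded, with a difference of 0.17 after it. The values that follow are again of the brightest probe sets of all 11 markers. Their mean level was 11.65 to 11.87 in unstimulated wild type and 11.75 to 11.81 in unstimulated transgenic arrays. After stimulation it was 10.33 to 10.48 in wild type and 10.44 to 10.54 in transgenic arrays, so the genotypes overlapped in both states. Of the 227 faded genes, 22 belonged to the lists of markers of other cells. Those lists are small beside the 18193 genes: 13 granulocyte, 22 myeloid, 11 erythroid, 13 T and NK cell and 7 platelet markers were measured.

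**Figure D5:**
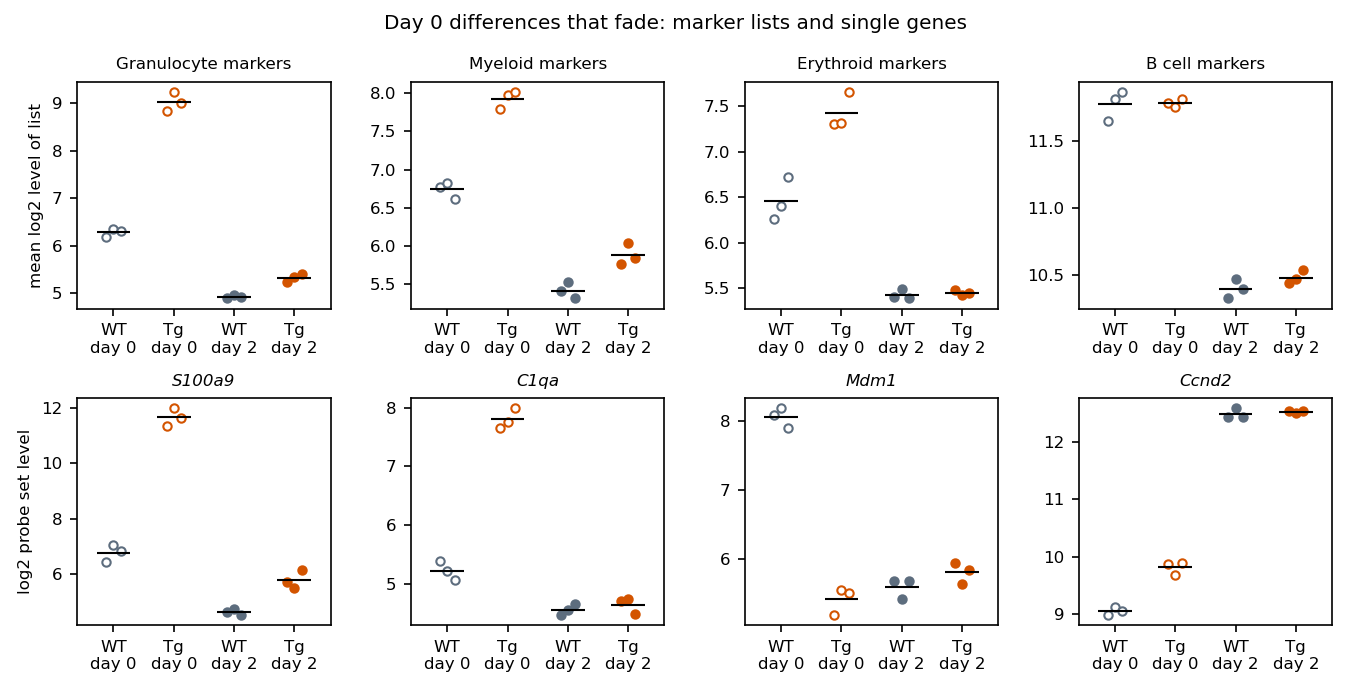
Top: mean log2 level of the granulocyte, myeloid, erythroid and B cell marker lists in each of the 12 arrays; bottom: log2 level of S100a9, C1qa, Mdm1 and Ccnd2; wild type (WT) in grey, transgenic (Tg) in orange, open at day 0, filled at day 2, bars at group means, with a vertical range per panel. The unstimulated transgenic arrays stand apart from wild type in the first 3 lists (granulocyte mean 8.84 to 9.24 against 6.19 to 6.35) and overlap with wild type for B cell markers.

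Faded differences also included genes of B cell growth and secretion. Ccnd2, cyclin D2, which drives resting B cells into the cycle, read 8.99, 9.13 and 9.06 in unstimulated wild type and 9.88, 9.69 and 9.89 in unstimulated transgenic arrays. It reached 12.43, 12.59 and 12.44 in wild type and 12.55, 12.51 and 12.54 in transgenic arrays. Transgenic arrays were higher before stimulation, while after it the genotypes overlapped. Its interaction was −0.71 ± 0.11 (adjusted p = 0.0069), and 1 of its 7 probe sets was called. Ccnd3, cyclin D3, had −0.92 ± 0.17 (adjusted p = 0.0161), lost without transgenic unstimulated replicate 3, wild type stimulated replicate 2 or transgenic stimulated replicate 2; its further probe sets had values of the opposite sign (0.56 and 0.21, not called). With Cdk4, these were the 3 calls among the brightest probe sets of 17 cyclins and CDK inhibitors, all below 0 (1.39% of all genes). The list's median was −0.070. Ube2c, which loads ubiquitin for the anaphase-promoting complex, had −0.75 ± 0.16 (adjusted p = 0.0399), lost without 8 of the 12 arrays in turn and with array medians subtracted (adjusted p = 0.0544).

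Xbp1, the transcription factor of the secretory pathway and plasma cells, read 11.17, 10.98 and 10.96 in unstimulated wild type and 11.77, 11.75 and 11.84 in unstimulated transgenic arrays. After stimulation it read 12.57, 12.56 and 12.33 in wild type and 12.63, 12.67 and 12.60 in transgenic arrays. The gap between the genotypes thus narrowed as the gene rose in both. The interaction was −0.60 ± 0.12 on the brightest probe set (adjusted p = 0.0268), lost without 9 of the 12 arrays in turn, and with quantile normalization (adjusted p = 0.05002). Of its further probe sets 2 were called (−0.75 and −1.26) and 1 was not, with the opposite sign (0.63, adjusted p = 0.308). Prg2, an eosinophil granule protein also placed in the plasma cell list, had −2.18 ± 0.39 (adjusted p = 0.0147). These 2 were the calls among 18 plasma cell genes, with a list median of −0.11. In the unfolded protein response list 1 of 23 was called below 0 (Xbp1) and 1 above 0 (Ddit3). The shares of all genes were 1.39% below 0 and 0.588% above 0.

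Marcks and Asb2, both placed in the marginal zone list, were at day 0 higher in transgenic cells, by 0.79 ± 0.11 and 1.26 ± 0.10. For Marcks, a kinase substrate at the plasma membrane, the interaction was −1.01 ± 0.15 (adjusted p = 0.00556), with calls on 3 of 7 probe sets. For Asb2, a ubiquitin ligase subunit, it was −0.67 ± 0.15 (adjusted p = 0.0399), lost without 9 of the 12 arrays in turn. Asb2 was still higher in transgenic cells after stimulation, by 0.59 ± 0.10 (adjusted p = 0.00888). Marcks and Asb2 were the 2 calls among 17 measured genes of the marginal zone list, whose median was −0.28. Both lay below 0, as did 1.39% of all genes.

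Genes that were lower in unstimulated transgenic cells were led by Mdm1, a microtubule-binding protein of centrioles. It read 8.08, 8.18 and 7.90 in unstimulated wild type and 5.20, 5.56 and 5.52 in unstimulated transgenic arrays. It read 5.68, 5.43 and 5.68 in stimulated wild type and 5.94, 5.65 and 5.84 in stimulated transgenic arrays. The unstimulated wild type arrays stood above all others, and the stimulated groups overlapped. The interaction was 2.84 ± 0.17 (adjusted p = 3.56e-06), but 1 of the 2 Mdm1 probe sets was called, and the other gave 0.21 ± 0.13 (adjusted p = 0.535).

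On the brightest probe set of each gene, several gene groups of B cell activation held no called interaction by limma. These were class switching and germinal centre genes (0 of 18, median 0.038), cholesterol synthesis (0 of 16, median 0.28), glycolysis (0 of 14, median −0.10), MHC class II (0 of 10, median 0.052), and calcium signalling with the KChIP family (0 of 26, median −0.043). Dimmer probe sets of these genes were not counted. A value that was not called is not shown to be equal between the genotypes. Of all genes, 1.98% were called.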

How the data were processed

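RNA of 12 samples was measured on single-colour arrays. The authors deposited log2 probe set values, summarised by RMA in affy (per the submitters' processing notes; versions not listed). Medians of the unstimulated arrays were 5.97 to 6.05, those of the stimulated ones 5.37 to 5.41. Joint or separate normalization of the states is not stated in these sources. A shift between states of equal size at all levels cancels in the interaction but not in a response. Responses therefore came from quantile-normalized values. A shift that varies with level need not cancel in the interaction where the genotypes differ in level. The Ctse interaction was 1.28 on deposited and 0.67 on quantile-normalized values. The number of arrays, 3 per group, limits the precision.

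After removal of 64 control probe sets, 45037 were fitted by limma (version 3.58.1, R 4.3.3), each group having 1 coefficient and no block, with Benjamini-Hochberg adjustment over all of them; tests are 2-sided. Gene symbols came from the array annotation, updated by Entrez identifier. It named 1 symbol for 34945 probe sets, several for 932 and none for 9160, and states no genome build. The probe set with the highest mean stood for each of 18193 genes, also in the counts and medians of the gene lists.

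The named genes are Kcnip3, the 8 largest interactions of lost induction, lost repression and faded differences, the 4 largest of stronger induction and stronger repression, and up to 2 called members of each of the gene lists, with genes chosen after seeing values named as such; clones and predicted genes were skipped. Members, classes and gene lists were chosen with earlier results of these data known. Promoters matched by symbol for 53 of 65 genes with lost induction, 24 of 34 with lost repression, 183 of 227 with faded differences and 10 of 12 with stronger repression. Replicate numbers were not taken as pairs in the model. Alternatives were other scalings, a replicate block, array weights, a trended robust prior, a filter on dim probe sets, a 2-fold minimum, other sorting orders and leaving out each array.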

Additional observations from a re-analysis of the deposited data

Results flagged for a closer look

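For 57 named genes the genotype difference itself differed between the unstimulated and the stimulated state, by limma's test of the interaction with Benjamini-Hochberg adjustment. Values are the stimulated minus the unstimulated difference (log2), with the sign of transgenic minus wild type. Among lost inductions these were Ccnb1ip1 (−3.72), Lad1 (−3.56), Gbp2b (−3.01), Gbp2 (−1.82), Tmem176a (−1.44) and Fmnl2 (−1.39). Further lost inductions were Dtwd1 (−1.31), Smyd2 (−1.21), Pttg1 (−1.05), Ccl22 (−0.84), Polr1b (−0.80) and Bid (−0.74). The rest of this class were Cish (−0.70), Tnf (−0.56) and Wdr12 (−0.51). Lost repressions were Slc15a2 (2.01), Cxcr4 (1.82), Ifi213 (1.74), Endou (1.33), Ctse (1.28) and Fcrla (1.19). Smaller ones were Lratd2 (1.08), Tbc1d23 (0.97), Ccl3 (0.96), Fcgr2b (0.87) and Ddit3 (0.57). Faded day 0 differences were found for S100a9 (−3.73), Ngp (−3.72), Camp (−3.41), Ltf (−3.06), S100a8 (−2.88) and Mdm1 (2.84). Next by size came Slc40a1 (−2.67), Prtn3 (−2.50), C1qa (−2.49), Rhag (−2.48), Alas2 (−2.21) and Prg2 (−2.18). Lower values were those of Marcks (−1.01), Ccnd3 (−0.92), Ebi3 (−0.85), Ube2c (−0.75), Ccnd2 (−0.71) and Asb2 (−0.67). Last came Xbp1 (−0.60). Induction was stronger for Saa3 (1.91), Marco (1.17), Nmrk1 (1.14) and Arg1 (0.96). Repression was stronger for Rasgrp2 (−1.58), Dusp2 (−1.29), Cyp4f18 (−1.11), Klf2 (−1.03) and Klf3 (−1.01). A response in transgenic cells alone was seen for Ifi44l (1.50), Plbd1 (−1.45) and Pf4 (1.12). Of these, Klf3, Fcgr2b, Plbd1, Ifi44l and Ccl3 were chosen after their values were seen. No explanation of these differences was tested.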

How the results depend on the processing

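The precision is limited by 3 arrays per group. Main counts were 710 called probe sets and 65, 34 and 227 genes with lost induction, lost repression and faded day 0 differences. Array weights gave 2189, 222, 100 and 646. A 2-fold minimum gave 253, 15, 8 and 106. Assigning all response classes before the faded differences gave 115 lost inductions, 80 lost repressions and 0 faded differences, and assigning only lost induction and lost repression first, an order added after seeing the data, gave 115, 80 and 131. The replicate block gave 767, 70, 42 and 245, and changed the call of no named gene other than Arg1, Asb2, Pf4 and Wdr12, which were not called with it (adjusted p = 0.0502, 0.0545, 0.054 and 0.0605). Deviations from group means correlated at −0.29 to 0.48 between same-numbered arrays; 13 of 18 correlations, not all, exceeded 0.1, and a same-numbered array was the best match in 27 of 36 cases. The labels name no pairing, so the block stayed an alternative. Other scalings, the trended robust prior, the filter on dim probe sets and other definitions kept each count within 1.5 times, but quantile normalization ended the calls of Ccl22, Pf4, Tnf, Wdr12 and Xbp1, subtracted medians those of Lratd2, Tnf, Ube2c and Wdr12, and the trended prior that of Tnf.

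Leaving out 1 array at a time gave 388 to 1418 calls, 37 to 98 lost inductions, 13 to 56 lost repressions and 130 to 471 faded differences. Calls moved by over 1.5 times without wild type unstimulated replicate 3 (1418), transgenic unstimulated replicate 3 (407), wild type stimulated replicates 1, 2 and 3 (446, 388 and 419) and transgenic stimulated replicates 1 and 2 (428 and 392). Lost inductions moved so without wild type unstimulated replicates 1 and 2 (98 and 40), transgenic unstimulated replicate 3 (38), wild type stimulated replicates 1, 2 and 3 (43, 43 and 37) and transgenic stimulated replicate 2 (37). Lost repressions moved so without wild type unstimulated replicates 2 and 3 (18 and 56), transgenic unstimulated replicates 1 and 3 (17 and 13), wild type stimulated replicates 2 and 3 (14 and 17) and transgenic stimulated replicates 1 and 2 (15 and 17). Faded differences moved so without wild type unstimulated replicate 3 (471), transgenic unstimulated replicate 3 (145), wild type stimulated replicates 1 and 2 (149 and 130) and transgenic stimulated replicates 1 and 2 (149 and 140). The cause was not tested beyond the smaller number of arrays.

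For the 57 called named genes, 1019 values were recomputed: 886 kept direction and call, 133 kept direction and lost the call, and 0 changed sign. Because these genes were chosen by their called interaction in the same arrays, a kept direction is no independent support. The call held in every alternative fit for 41 genes and was lost at least once for 16. The median over all probe sets of Ccnd3 was 0.21, of the opposite sign to its brightest probe set. The marker counts without wild type unstimulated replicate 1 were chosen after seeing the data.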
